A study of Mus musculus with 37 samples.

Results

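The 8 mouse genes described here encode proteins that store mRNAs in the oocyte and decide when they are translated: Cpeb1, Dazl and Igf2bp2, which bind the 3′ untranslated regions (UTRs) of target mRNAs; Ybx2, Lsm14b and Patl2, proteins of stored messenger ribonucleoproteins (RNPs); and Eif4e1b and Pabpc1l, the oocyte forms of the cap-binding and poly(A)-binding proteins. They were chosen by gene symbol, with earlier results of these data known, and all 8 were found among the 55401 genes listed in each of the 2 deposited tables. Expression was measured by RNA-seq in 37 libraries and is given as FPKM, a level corrected for gene length and library total. Total RNA came from 5 stages: FGO (fully grown oocytes), MII (eggs at metaphase II), L1C (late 1-cell), E2C (early 2-cell) and L2C (late 2-cell embryos). Each had 2 control and 3 knockout libraries, except E2C with 3 of each. Poly(A) RNA was sequenced from the epiblast (EPI) and visceral endoderm (VE) of embryonic day 6.5 (E6.5), with 2 control and 2 knockout libraries each, and from the extraembryonic ectoderm (EXE), with 1 control and 2 knockout libraries.

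Controls came from Bap1flox/flox females and knockouts from females that also carried Gdf9-iCre, a Cre recombinase under the promoter of the oocyte gene Gdf9, so every group carried the floxed allele and only the knockouts the Cre. Bap1 encodes a nuclear deubiquitinase that removes ubiquitin from histone H2A. The early embryos were sired by B6 males and cultured in KSOM medium, and the E6.5 embryos were sired by PWK males. The paternal Bap1 allele was therefore not floxed in any embryo, and the knockout is maternal. The labels do not say how many animals or cells entered a library or whether replicates came from separate females, so p-values measure only the spread between these libraries. The design asks how loss of BAP1 affects the transcriptome of oocytes and early embryos.

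A growing oocyte transcribes and stores mRNAs with short poly(A) tails and translates them later, when its chromatin is silent. CPEB1 binds the cytoplasmic polyadenylation element (CPE) in the 3′ UTR, keeps the mRNA dormant and, once phosphorylated during meiotic maturation, recruits the polyadenylation machinery, while DAZL acts on overlapping targets. Stored mRNAs sit in particles with YBX2 (also called MSY2), LSM14B and PATL2, and most are degraded in waves during meiotic maturation and at zygotic genome activation in the 2-cell embryo.

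The mRNAs of these regulators can carry the same element themselves. The sites below are shown because they are the CPE nearest to the annotated 3′ end in each of the 5 genes that had one (GENCODE M21, mm10 coordinates, strand of the mRNA, 5′ to 3′), with that element, TTTTAT or TTTTAAT, in capitals. The Igf2bp2 stretch also holds the other match of that 3′ UTR, left in lower case.
Cpeb1: ttgacttttctTTTTAATttaacgattact
Dazl: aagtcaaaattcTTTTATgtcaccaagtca
Igf2bp2: attttttatttTTTTAATaaaaatgagttg
Ybx2: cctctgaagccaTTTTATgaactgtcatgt
Lsm14b: aatggaaccaaaTTTTATttggcacatgtg
They lie in the 3′ UTR exons at chr7:81347256-81347285 (minus strand) for Cpeb1, chr17:50279752-50279781 (minus strand) for Dazl, chr16:22059374-22059403 (minus strand) for Igf2bp2, chr11:69941532-69941561 (plus strand) for Ybx2 and chr2:180034634-180034663 (plus strand) for Lsm14b. The Ybx2 element ended 56 bases before the annotated end of the mRNA and was the only 1 within the last 100 bases, a window in which 17.9% of 18776 protein-coding genes had such a match. The others ended 242 (Cpeb1), 367 (Dazl), 377 (Igf2bp2) and 810 bases (Lsm14b) before it. The last 100 bases of Ybx2 and of Igf2bp2 held neither AATAAA nor ATTAAA, the polyadenylation signals, which 78.7% of those protein-coding genes had there. Over the whole 3′ UTR, Dazl had 6 matches, Cpeb1 4, Igf2bp2 and Lsm14b 2 each, Ybx2 1 and Eif4e1b, Pabpc1l and Patl2 0. A match anywhere in the 3′ UTR was found in 57.9% of those genes. The matches are descriptions of the annotated transcripts, not measured binding sites, and the 3′ ends used in these cells were not analysed here.

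Library quality bears on all values. Bap1 was at 16.3 to 29.9 FPKM in the 11 control libraries of the early stages and at 3.76 to 11.7 FPKM in the 15 knockout libraries, with no overlap, as the labels have it. At E6.5 Bap1 was at 14.0 to 22.6 FPKM in the 5 control and 18.4 to 33.8 FPKM in the 6 knockout libraries. The number of reads per library is unknown, since FPKM values did not fall on whole-read steps. A single non-coding gene, Gm23935, held 5.98% to 23.1% of the summed FPKM of the early libraries. In late 2-cell embryos it held 20.2% and 23.1% in the control and 15.3% to 17.3% in the knockout libraries. The part of this difference in the results was not tested. The 9 oocyte markers (such as Gdf9, Zp3 and Nlrp5) all had a mean of at least 1 FPKM in each early group, and the 13 cumulus and granulosa cell markers summed to at most 12.8 FPKM in any early library. Those sums were lower in every knockout than in every control library of the same stage. They rest on few genes, since only 1 or 2 of the 13 had a mean of at least 1 FPKM in each early group. The part of these sums in the results was not tested.

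In control oocytes all of the 8 mRNAs but Patl2 were abundant and ranked among the 571 most abundant of 11283 genes whose mean reached 1 FPKM. Lsm14b ranked 20, Eif4e1b 73, Igf2bp2 208, Ybx2 263, Cpeb1 280, Dazl 450 and Pabpc1l 571, whereas Patl2 ranked 5121. By late 2-cell embryos the mean of each was below its oocyte mean, but the steps fell in different windows. Cpeb1 fell during maturation and by more between the late 1-cell and early 2-cell stage, Lsm14b mainly after fertilization, Igf2bp2 and Patl2 mainly between the late 1-cell and early 2-cell stage, and Dazl, Ybx2, Eif4e1b and Pabpc1l mainly between the early and late 2-cell stage. FPKM are relative within a library, so a fall of 1 mRNA and a rise of all other RNA cannot be told apart, and in bulk samples neither can fewer cells of a type that holds the mRNA and less of it per cell. Differences below are on the log2(FPKM + 1) scale, and a gene was called where its adjusted p was under 0.05 over the 15184 genes tested.

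**Figure D1:**
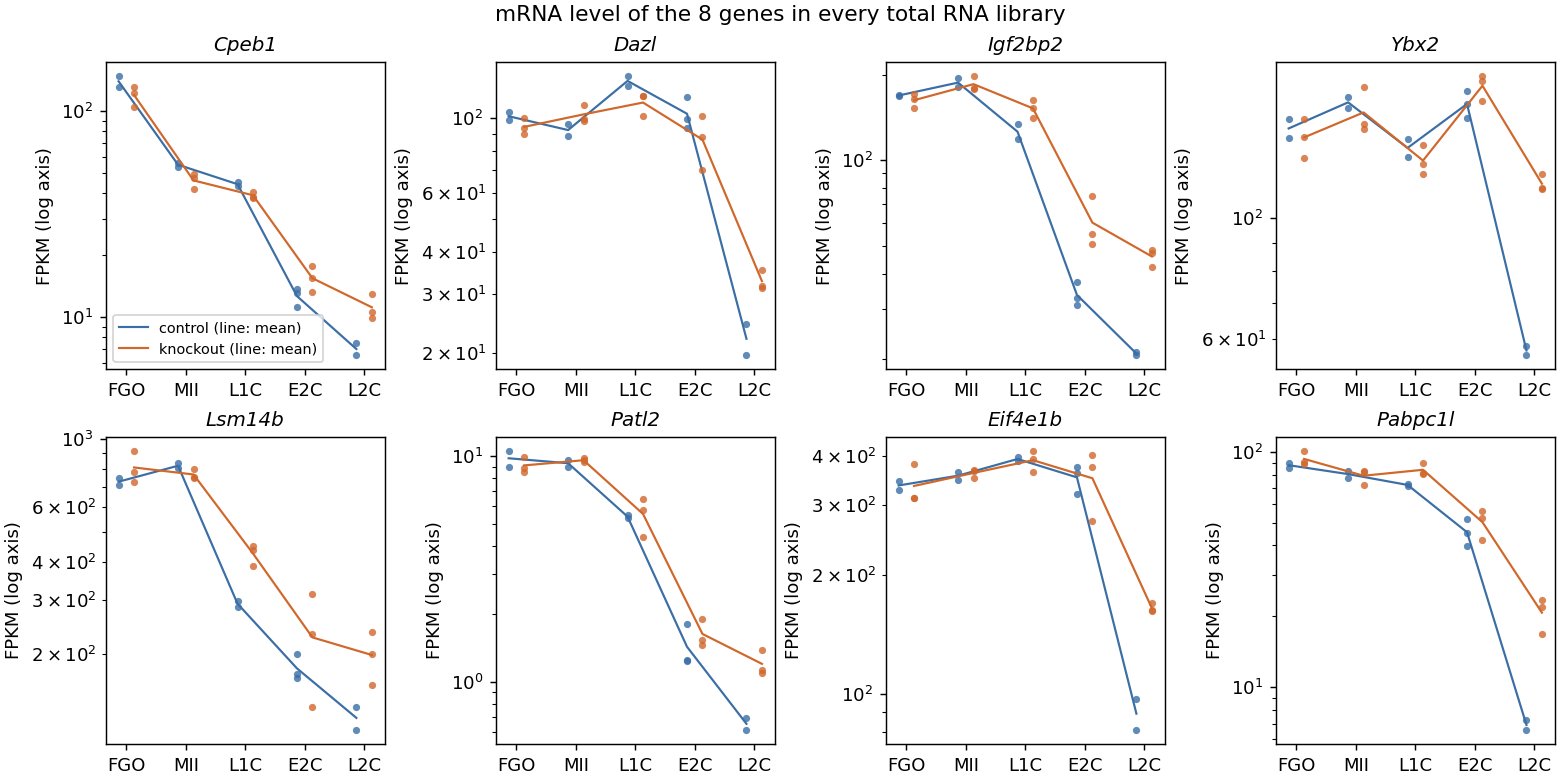
FPKM of the 8 genes (log axes that differ between panels) in each of the 26 total RNA libraries by stage, with control libraries in blue, knockout libraries in orange and lines through the group means. In late 2-cell embryos every knockout point lies above every control point in all 8 panels.

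Among the 3′ UTR binding proteins, Cpeb1 (chr7:81347026-81455465, minus strand) was the earliest to fall. It was at 131 and 148 FPKM in the control oocyte libraries, 53.9 and 56.2 in eggs, 43.2 and 45.4 in late 1-cell, 11.3, 13.7 and 13.1 in early 2-cell and 6.53 and 7.50 in late 2-cell embryos. No 2 consecutive stages overlapped, a pattern whose share over all genes was not computed. With so few libraries per group, stages without overlap were common among the 8 genes, and no result is drawn from this pattern. The step from oocyte to egg was -1.33 ± 0.10 (SE), adjusted p = 1.41e-08, and Cpeb1 was the only 1 of the 8 genes called in this comparison, in which 5.39% of the genes tested were called. The steps to the early and late 2-cell stage were -1.73 and -0.77 (adjusted p = 2.2e-09 and 0.000577). The smaller step from egg to late 1-cell embryo (-0.31, adjusted p = 0.0269) did not pass when any 1 of its 4 libraries was left out (adjusted p from 0.0601 to 0.167).

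Dazl (chr17:50279395-50293636, minus strand), a germ cell RNA-binding protein that promotes translation of maternal mRNAs, stayed near its oocyte level until the early 2-cell stage. Control libraries held 98.5 and 104 FPKM in oocytes, 95.8 and 88.6 in eggs, 133 and 125 in late 1-cell, 116, 99.8 and 93.8 in early 2-cell and 24.5 and 19.7 in late 2-cell embryos. It was the only 1 of the 8 genes called higher in control late 1-cell embryos than in eggs (0.48 ± 0.09 (SE), adjusted p = 0.000391). In that comparison 5 others were called lower, against 25.4% of the genes called in either direction. With each library centred on its median, Eif4e1b was called higher as well (0.00907), and of the 5 lower Cpeb1 (0.363) and Ybx2 (0.346) were lost. Between the early and late 2-cell stage Dazl fell to 21.4% of its early 2-cell mean (-2.17 ± 0.15 (SE), adjusted p = 2.08e-10). Its step from late 1-cell to early 2-cell embryos (-0.33, adjusted p = 0.0356) did not pass without late 1-cell control replicate 1 (0.133), or without early 2-cell control replicate 2 (0.115) or 3 (0.16). The 2 stages fitted alone gave an adjusted p of 0.0816.

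Igf2bp2 (chr16:22059009-22163299, minus strand), which binds and stabilizes mRNAs, was at 168 and 169.7 FPKM in control oocytes, 194 and 181 in eggs, 134 and 118 in late 1-cell, 30.9, 37.3 and 32.8 in early 2-cell and 21.3 and 20.7 in late 2-cell embryos. The levels in oocytes and eggs did not differ beyond the threshold (adjusted p = 0.413). The largest step came between late 1-cell and early 2-cell embryos, to 26.7% of the earlier mean (-1.88 ± 0.12 (SE), adjusted p = 9.51e-11). In this comparison 6 of the 8 genes were called lower and 0 higher, against 47.2% of the genes called in either direction and 29.1% lower.

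Ybx2 (chr11:69935796-69941605, plus strand), a Y-box protein that coats and stabilizes stored mRNAs, was nearly level up to the early 2-cell stage. Its control values were 140.4 and 152 FPKM in oocytes, 159.8 and 167 in eggs, 139.6 and 129.8 in late 1-cell, 163, 171 and 153 in early 2-cell and 56.0 and 58.4 in late 2-cell embryos. The late 2-cell libraries lay far below all others, at 35.3% of the early 2-cell mean (-1.49 ± 0.14 (SE), adjusted p = 1.29e-08). The dip from egg to late 1-cell embryo (-0.28, adjusted p = 0.0155) did not pass without egg control replicate 2 (0.102) or late 1-cell control replicate 2 (0.161). The step from late 1-cell to early 2-cell embryos was 0.27 (adjusted p = 0.0587), and it was called with the 2 stages alone (0.0317).

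Lsm14b (chr2:180024987-180035465, plus strand), an RNP protein of the Scd6 and RAP55 family, was the most abundant of the 8. It was at 747 and 707 FPKM in control oocytes, 803 and 836 in eggs, 286 and 299 in late 1-cell, 173, 200.2 and 167 in early 2-cell and 114 and 135 in late 2-cell embryos. The levels before and after fertilization were wide apart, at 35.7% of the egg mean in late 1-cell embryos (-1.48 ± 0.14 (SE), adjusted p = 8.66e-08). The last step, between the 2-cell stages, missed the threshold (-0.53 ± 0.23 (SE), adjusted p = 0.0609). It was called lower with TPM (0.0184), with libraries centred on their medians (0.00512), with a mean of at least 5 FPKM (0.0409) and with no stage weights (0.0385). Patl2 (chr2:122120108-122186189, minus strand), an oocyte relative of the decapping activator PATL1, was the least abundant, at 9.01 and 10.6 FPKM in oocytes, 9.01 and 9.64 in eggs, 5.50 and 5.32 in late 1-cell, 1.24, 1.25 and 1.81 in early 2-cell and 0.693 and 0.614 in late 2-cell embryos. Its steps after the egg were -0.69, -1.41 and -0.55 (adjusted p = 0.000195, 5.18e-07 and 0.0266). The last of these did not pass without early 2-cell control replicate 3 (adjusted p = 0.11), late 2-cell control replicate 1 (0.0708) or 2 (0.11).

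The cap- and poly(A)-binding factors, too, fell mainly at the last step. Eif4e1b (chr13:54783998-54788459, plus strand), an oocyte form of the cap-binding protein eIF4E, was at 346 and 327 FPKM in control oocytes, 364 and 348 in eggs, 396 and 389 in late 1-cell, 320.1, 375 and 363 in early 2-cell and 81.0 and 97.1 in late 2-cell embryos. Only its last step passed the threshold, to 25.2% of the early 2-cell mean (-1.98 ± 0.15 (SE), adjusted p = 8.48e-10). Pabpc1l (chr2:164025450-164050538, plus strand), the embryonic poly(A)-binding protein ePAB, was at 89.9 and 85.5 FPKM in oocytes, 77.5 and 83.3 in eggs, 72.8 and 71.8 in late 1-cell, 45.2, 51.6 and 39.8 in early 2-cell and 6.58 and 7.25 in late 2-cell embryos. It fell first between late 1-cell and early 2-cell embryos (-0.66, adjusted p = 0.00026) and then to 15.2% of the early 2-cell mean (-2.55 ± 0.16 (SE), adjusted p = 4.64e-11), the largest step of the 8 genes in this comparison. Of the 8 genes 7 were called lower between the 2-cell stages in controls, in which 51.7% of the genes were called in either direction and 22.5% lower. The median difference of the 8 was -1.13, against 0.02 over all genes tested.

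How many of all called genes were higher or lower depended on the scaling. With TPM the filter and the pseudocount were applied after rescaling. That fit therefore tested 19980 genes, against 15184 on the deposited scale, and its counts differ in gene set as well as scale. With libraries centred on their medians, called genes numbered 3421 higher and 1543 lower from egg to late 1-cell embryo in controls (1457 and 2405 on the deposited scale, and 995 and 2601 with TPM), 3676 and 3622 from late 1-cell to early 2-cell embryo (2751 and 4414), and 3561 and 4879 from early to late 2-cell embryo (4434 and 3417). In knockouts they numbered 1365 and 885 from oocyte to egg (986 and 1116), then 1908 and 1141 (814 and 1677), 3691 and 2998 (2311 and 4025) and 2937 and 4812 (4158 and 2748). For knockout against control they numbered 1153 and 1032 in oocytes (593 and 1514), 2187 and 1114 in eggs (998 and 1547), 1521 and 1331 in late 1-cell (1154 and 1521) and 1386 and 899 in early 2-cell embryos (941 and 1105, and 1373 and 909 with TPM). For the difference of effects, early 2-cell minus late 1-cell, they numbered 281 and 284 (195 and 314). Among the 8 genes the called falls between the 2-cell stages and the calls in late 2-cell knockouts kept their direction under both scalings.

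Knockout oocytes and eggs held these mRNAs at close to control levels. In fully grown oocytes 0 of the 8 genes were called and the libraries of the 2 genotypes overlapped for each gene, while 13.9% of the genes tested were called (2107 genes with limma) and 41.8% did not overlap. The differences ranged from -0.22 (Cpeb1) to 0.15 (Lsm14b), with the lowest adjusted p at 0.131 and the lowest unadjusted p at 0.0289, both for Cpeb1, the only gene of the 8 with an unadjusted p under 0.05. Cpeb1 was at 105, 132 and 123 FPKM in the knockout oocyte libraries.

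In knockout eggs Cpeb1 was at 41.7, 47.3 and 49.6 FPKM, below both control libraries (53.9 and 56.2), and its difference was -0.25 ± 0.08 (SE), adjusted p = 0.0466. It was the only 1 of the 8 genes called, against 16.8% of the genes tested. Groups also did not overlap for Dazl, higher in knockouts (0.15 ± 0.08 (SE), adjusted p = 0.199), and Lsm14b, lower in knockouts (-0.09 ± 0.12 (SE), adjusted p = 0.692), a pattern found in 41.7% of the genes tested, and neither was called. With libraries centred on their medians the call moved from Cpeb1 (0.316) to Dazl (0.0333). The Cpeb1 call was narrow: the eggs fitted alone gave an adjusted p of 0.104, and it was lost without egg control replicate 1 (0.126) or 2 (0.268) and without knockout replicate 1 (0.215) or 2 (0.0841). A difference between the knockout effects on Cpeb1 in eggs and in oocytes was not called ( -0.03 ± 0.13 (SE), adjusted p = 1). For MII minus FGO, 0 genes in all passed this test of the difference with limma; at an unadjusted p under 0.05 there were 1678 genes. Cpeb1 fell during maturation in knockouts too, by 1.36 (adjusted p = 2.5e-10), 1 of 2 genes of the 8 called lower there against 13.8% of the genes called in either direction. The other, Pabpc1l (-0.23 ± 0.08 (SE), adjusted p = 0.0442), was lost without knockout oocyte replicate 1 (0.172), 2 (0.067) or 3 (0.0607) and knockout egg replicate 1 (0.0609) or 3 (0.168), and with the 2 stages alone (0.0732).

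In late 1-cell embryos of knockout mothers 2 of the 8 mRNAs were called higher and 0 lower, against 17.6% of the genes called in either direction and 7.60% called higher. Lsm14b was at 438, 451 and 387 FPKM in the knockout libraries, each above both controls (286 and 299), a difference of 0.54 ± 0.13 (SE), adjusted p = 0.00685. The late 1-cell libraries alone gave 0.00582, and the call was lost without control replicate 1 (0.0744) and with no stage weights (0.159). Igf2bp2 was at 141, 163 and 153 FPKM against 134 and 118 in controls, with no overlap (0.27 ± 0.08 (SE), adjusted p = 0.029). This call was lost with the late 1-cell libraries alone (0.0742) and without control replicate 2 (0.35) or knockout replicate 2 (0.138) or 3 (0.0564). Pabpc1l was also higher in each knockout than in each control library, and Cpeb1 and Dazl lower, without passing the test (adjusted p = 0.125, 0.242 and 0.0961); groups did not overlap in 43.0% of the genes. For no gene of the 8 did the effect differ from that in eggs at the threshold, which 0.198% of the genes passed (differences 0.63 ± 0.18 (SE) for Lsm14b, adjusted p = 0.122, and 0.29 ± 0.11 (SE) for Igf2bp2, adjusted p = 0.266). After fertilization Lsm14b fell in knockouts by 0.85 and Patl2 by 0.71 (adjusted p = 1.46e-05 and 2.42e-05). The 9 oocyte markers summed to 1288 FPKM in both control and 1375 to 1872 FPKM in the knockout late 1-cell libraries, and their part in the result was not tested. With Ybx2 and Igf2bp2, Lsm14b and Patl2 were the 4 of 8 called lower from egg to late 1-cell embryo in knockouts, and 0 were called higher, against 16.4% of the genes in either direction. With each library centred on its median 2 remained called lower, since Igf2bp2 (0.147) and Ybx2 (0.0568) were lost, and Eif4e1b was called higher (0.0425). Under the replicate block 1 was called lower. The 2 stages fitted alone also called Cpeb1 lower (0.0437, against 0.057).

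In early 2-cell embryos Igf2bp2 alone of the 8 was called, against 13.5% of the genes tested. It was at 55.3, 74.9 and 51.0 FPKM in knockout libraries and 30.9, 37.3 and 32.8 in controls, and each knockout library lay above each control, a pattern found in 14.6% of the genes. The knockout mean was 179% of the control mean (0.81 ± 0.14 (SE), adjusted p = 0.000708), and the call held in each of the 15 alternatives run. The test of a larger effect than in late 1-cell embryos, which 3.35% of the genes passed in either direction, was not passed (0.54 ± 0.17 (SE), adjusted p = 0.0772), and passed without early 2-cell knockout replicate 3 (0.0456). Lsm14b, which was higher in knockout late 1-cell embryos, was at 135, 314 and 233 FPKM in early 2-cell knockouts, libraries that lay on both sides of the controls (173, 200.2 and 167). For Dazl, Ybx2, Eif4e1b, Pabpc1l, Patl2 and Cpeb1 the genotypes also overlapped at this stage, with differences from -0.26 to 0.26.

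**Figure D2:**
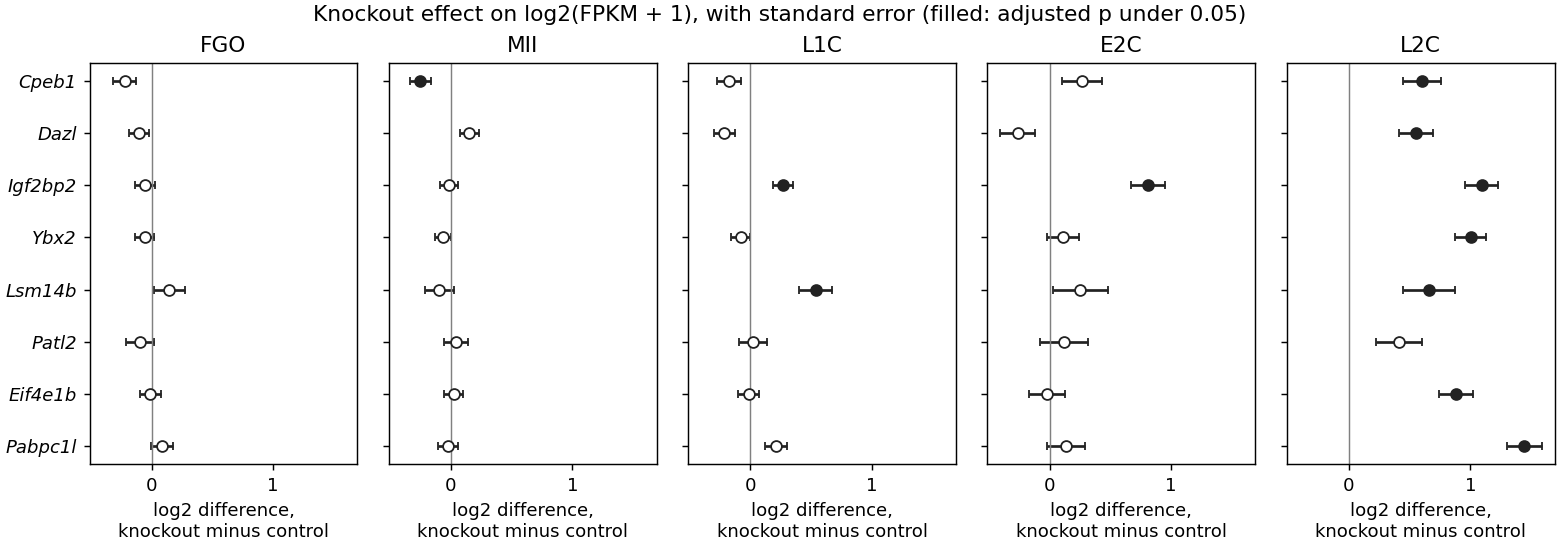
Difference between knockout and control libraries on the log2(FPKM + 1) scale (x axis) for each of the 8 genes (y axis) at the 5 stages, with standard errors as bars and filled points for adjusted p under 0.05. The 8 points lie around 0 in oocytes and eggs and between 0.41 and 1.45 in late 2-cell embryos, where 7 of 8 are filled.

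In late 2-cell embryos of knockout mothers all 8 mRNAs were at higher levels than in controls. For each gene every knockout library lay above both control libraries, and 7 of 8 were called higher and 0 lower, all but Patl2. Of the genes tested 34.2% were called in either direction and 17.0% higher, and 29.1% had every knockout library above every control library. The median difference of the 8 genes was 0.77, against 0.03 over all genes tested. Genes called at this stage numbered 2588 higher and 2609 lower. With values rescaled to TPM, where 19980 genes were tested, they numbered 3302 higher and 1861 lower.

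Pabpc1l differed most. It was at 16.9, 23.5 and 21.8 FPKM in knockouts and 6.58 and 7.25 in controls, a knockout mean of 299.8% of the control mean (1.45 ± 0.15 (SE), adjusted p = 3.04e-07). Eif4e1b was at 161, 163 and 169.8 FPKM in knockouts and 81.0 and 97.1 in controls (0.89 ± 0.14 (SE), adjusted p = 5.47e-05). Thus both translation factors were far from overlap between genotypes, and both calls held in each of the 14 alternatives.

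Of the storage proteins, Ybx2 was at 113, 120.5 and 114 FPKM in knockouts, 202% of the control mean, and 56.0 and 58.4 in controls (1.00 ± 0.13 (SE), adjusted p = 4.53e-06). Lsm14b was at 159, 201 and 237 FPKM and 114 and 135 in controls (0.66 ± 0.22 (SE), adjusted p = 0.0214), libraries that were closer to each other. Its call was lost without late 2-cell control replicate 1 (0.179) and without knockout replicate 2 (0.0568) or 3 (0.118). Patl2 was at 1.14, 1.10 and 1.38 FPKM in knockouts and 0.693 and 0.614 in controls and missed the threshold (0.41 ± 0.19 (SE), adjusted p = 0.0961). At this low level the pseudocount matters, and Patl2 was called with a pseudocount of 0.1 (0.0107) with TPM (0.0245) and with no stage weights (0.0254).

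Of the 3′ UTR binding proteins, Igf2bp2 was at 42.2, 47.2 and 48.5 FPKM in knockouts and 21.3 and 20.7 in controls, 219% of the control mean (1.09 ± 0.14 (SE), adjusted p = 3.39e-06). Dazl was at 35.4, 31.3 and 31.6 FPKM in knockouts and 24.5 and 19.7 in controls (0.56 ± 0.14 (SE), adjusted p = 0.004), and Cpeb1 at 9.93, 10.6 and 13.0 and 6.53 and 7.50 (0.60 ± 0.16 (SE), adjusted p = 0.005). Both were apart by less than Igf2bp2, and each call was lost when 1 control library was left out: replicate 2 for Dazl (0.0973) and replicate 1 for Cpeb1 (0.0705). Without a filter on low values, which adds genes to the test, Cpeb1 (0.0652), Dazl (0.0583) and Lsm14b (0.18) were not called, and Igf2bp2, Ybx2, Eif4e1b and Pabpc1l were.

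Markers moved at this stage too. The 9 oocyte markers summed to 282.6 to 286.6 FPKM in control and 489.9 to 568.2 FPKM in knockout late 2-cell libraries. Bmp15 and Gdf9 made up most of these sums, at means of 120.4 and 66.0 FPKM in controls and 220.9 and 151 FPKM in knockouts. Of the other 7, Nlrp5, Nobox, Ooep and Zp2 were higher in each knockout than in each control library, Figla and Zp1 overlapped, and Zp3 was lower, at 15.2 to 15.4 FPKM in controls and 9.21 to 13.4 FPKM in knockouts. The 6 markers of the 2-cell embryo (such as Zscan4d and Zfp352) summed to 68.6 to 79.0 FPKM in control and 168.7 to 224.9 FPKM in knockout late 2-cell libraries, and to 164.5 to 216.2 FPKM in control and 74.3 to 146.3 FPKM in knockout early 2-cell libraries. The 13 cumulus and granulosa markers summed to 10.95 to 12.8 FPKM in control and 3.87 to 4.57 FPKM in knockout late 2-cell libraries, with Inha, Inhba, Lum and Ptx3 at 0 in all of them. Of the 13, only 2 had a mean of at least 1 FPKM in each genotype. The part of these marker differences in the higher levels of the 8 mRNAs was not tested.

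The drop between the 2-cell stages was itself smaller in knockouts for 4 genes. Tested directly, the knockout effect was larger in late than in early 2-cell embryos for Pabpc1l (1.31 ± 0.21 (SE), adjusted p = 0.000201), Eif4e1b (0.91 ± 0.20 (SE), adjusted p = 0.00311), Ybx2 (0.89 ± 0.19 (SE), adjusted p = 0.00161) and Dazl (0.82 ± 0.20 (SE), adjusted p = 0.00692), against 9.55% of the genes called in this direction. These are the 4 genes whose main fall in controls came in this window. Pabpc1l fell to 15.2% of the early 2-cell mean in controls and 41.3% in knockouts. Eif4e1b fell to 25.2% and 46.9%, Ybx2 to 35.3% and 66.1%, and Dazl to 21.4% and 38.0%. Each of the 4 still fell in knockouts (differences from -1.36 to -0.59, the highest adjusted p 0.000498). The Dazl difference of effects missed the threshold without late 2-cell control replicate 2 (0.0545). For Cpeb1, Igf2bp2, Lsm14b and Patl2 the difference of effects was 0.28 to 0.41 and was not called. The stage change in controls, the knockout effect and their difference share the late 2-cell control libraries.

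In knockouts 6 of the 8 genes were called lower between the 2-cell stages, against 45.5% of the genes called in either direction and 18.1% lower. Of these, the Cpeb1 call (-0.43) was lost without early 2-cell knockout replicate 2 (0.123) or 3 (0.0577) and late 2-cell knockout replicate 1 (0.0886) or 2 (0.0673). The Igf2bp2 call (-0.37) was lost without early 2-cell knockout replicate 2 (0.234) or late 2-cell knockout replicate 1 (0.0917). Between late 1-cell and early 2-cell knockout embryos Ybx2 was the only 1 of the 8 called higher (0.45 ± 0.11 (SE), adjusted p = 0.00167), while 6 were called lower, against 41.7% of the genes called in either direction. Of these 6, Dazl (-0.38) was lost without early 2-cell knockout replicate 3 (0.179). The Ybx2 libraries were at 121, 126 and 137 FPKM in late 1-cell and 183, 179 and 164 in early 2-cell knockouts.

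**Figure D3:**
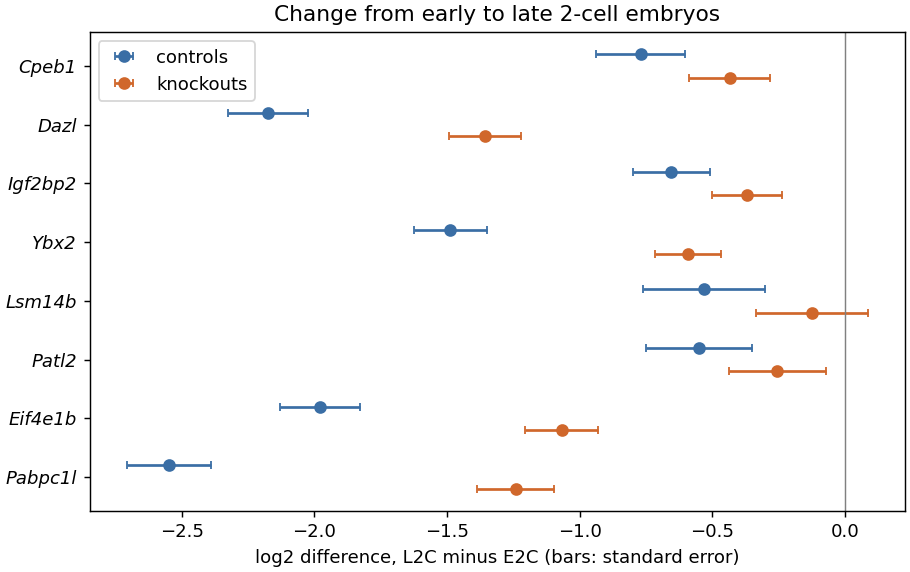
Change from early to late 2-cell embryos on the log2(FPKM + 1) scale (x axis, standard errors as bars) for each of the 8 genes (y axis) in controls (blue) and knockouts (orange). The orange point lies nearer to 0 than the blue point for each gene, and the difference was called for Dazl, Ybx2, Eif4e1b and Pabpc1l.

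Most of these proteins have a relative that is also used outside the germ line, and the balance within each pair was compared in the same library as a difference of log2(FPKM + 1), with no test. Pabpc1l and Pabpc1, the poly(A)-binding protein of somatic cells, exchanged places. Pabpc1l was 12.3 times as high as Pabpc1 in control oocytes, and Pabpc1 was 17.6 times as high as Pabpc1l in control late 2-cell embryos (ratios of mean FPKM). In knockout late 2-cell embryos Pabpc1 was 2.97 times as high. Pabpc4, another poly(A)-binding protein, was nearly as high as Pabpc1l in control oocytes, where Pabpc1l was 1.13 times as high. Its mean was 77.7 FPKM there and 73.6 FPKM in control late 2-cell embryos. In late 2-cell embryos Pabpc4 was 10.6 times as high as Pabpc1l in controls and 3.70 times in knockouts.

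Both Pabpc1l and Pabpc1 moved. Pabpc1 was at 12.1, 7.30 and 9.36 FPKM in control and 4.52, 2.74 and 4.29 FPKM in knockout early 2-cell embryos, and at 131 and 112 FPKM in control and 58.3, 63.2 and 63.2 FPKM in knockout late 2-cell embryos. The genotypes did not overlap at either stage, with differences of -1.12 ± 0.21 (SE), adjusted p = 0.00121 and -0.97 ± 0.20 (SE), adjusted p = 0.000814. Between these stages Pabpc1 rose by 3.55 in controls (adjusted p = 3.37e-11). The log2 difference between Pabpc1l and Pabpc1 was -3.95 ± 0.25 in control (SD, n = 2) and -1.54 ± 0.18 in knockout late 2-cell embryos (SD, n = 3).

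In the following pairs the gene of the group was called and its relative was not. Eif4e, the general cap-binding protein, was at 56.6 ± 11.2 (SD, n = 2) FPKM in control and 58.2 ± 5.55 (SD, n = 3) FPKM in knockout late 2-cell embryos (difference 0.05 ± 0.13 (SE), adjusted p = 0.822), while Eif4e1b was higher in knockouts. Ybx1, the widely expressed Y-box protein, was at 305 ± 18.0 (SD, n = 2) and 323 ± 33.5 (SD, n = 3) FPKM there (0.08 ± 0.15 (SE), adjusted p = 0.756), while Ybx2 was higher. Igf2bp3, another mRNA-binding protein of the Igf2bp family, was at 42.4 ± 4.42 (SD, n = 2) and 34.0 ± 0.747 (SD, n = 3) FPKM (-0.31 ± 0.12 (SE), adjusted p = 0.0639), so that Igf2bp2 was below Igf2bp3 in controls and above it in knockouts. Some relatives share exonic sequence with other annotated genes, counted in words of 50 bases. The share is largest for Pabpc4, another relative of Pabpc1l, at 54.8% of its words. Igf2bp3 shares 18.1%, Ybx1 15.4%, Pabpc1 9.94%, Eif4e 6.02% and Lsm14a 5.68%. The values of these relatives, above all Pabpc4, are therefore less certain than those of the 8 genes. Of the 8, Eif4e1b shares 4.27% and the other 7 share 0%.

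Some relatives were called higher in knockout late 2-cell embryos together with the group. Ybx3 was at 48.1 ± 4.17 (SD, n = 2) and 74.5 ± 4.31 (SD, n = 3) FPKM in control and knockout libraries (0.62 ± 0.11 (SE), adjusted p = 0.000126). Lsm14a was at 132 and 179 FPKM (0.44 ± 0.09 (SE), adjusted p = 0.00095), Patl1 at 10.9 and 20.9 FPKM (0.88 ± 0.13 (SE), adjusted p = 3.57e-05). All 3 fell in controls between the 2-cell stages, by 1.85 (Ybx3), 0.78 (Lsm14a) and 0.52 (Patl1). Of the relatives of Cpeb1, Cpeb2 was at 3.01 and 2.41 FPKM in control and 5.23, 13.5 and 7.68 FPKM in knockout late 2-cell embryos (1.32 ± 0.32 (SE), adjusted p = 0.00277). Cpeb2 was already called higher in knockout oocytes (0.58 ± 0.19 (SE), adjusted p = 0.0488), at 2.39, 2.03 and 1.17 FPKM against 0.928 and 0.834 in controls. That call was close to the threshold at a low level, where the pseudocount matters, and its values under the alternatives are not given here. Cpeb2 was also called higher in eggs (0.84, adjusted p = 0.00133) and in late 1-cell embryos (0.69, adjusted p = 0.0171), but not in early 2-cell embryos (0.862). Cpeb4, at 72.7 and 77.2 FPKM in control and knockout late 2-cell embryos, was not called (adjusted p = 0.605). The means of Cpeb3 went the other way from those of Cpeb2 in oocytes (17.2 FPKM in controls and 12.4 in knockouts) and eggs (22.0 and 17.8). They did so too in late 1-cell (22.0 and 19.5) and late 2-cell embryos (12.6 and 8.71), where libraries of the genotypes overlapped. In early 2-cell embryos they were 12.2 and 12.7 FPKM.

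**Figure D4:**
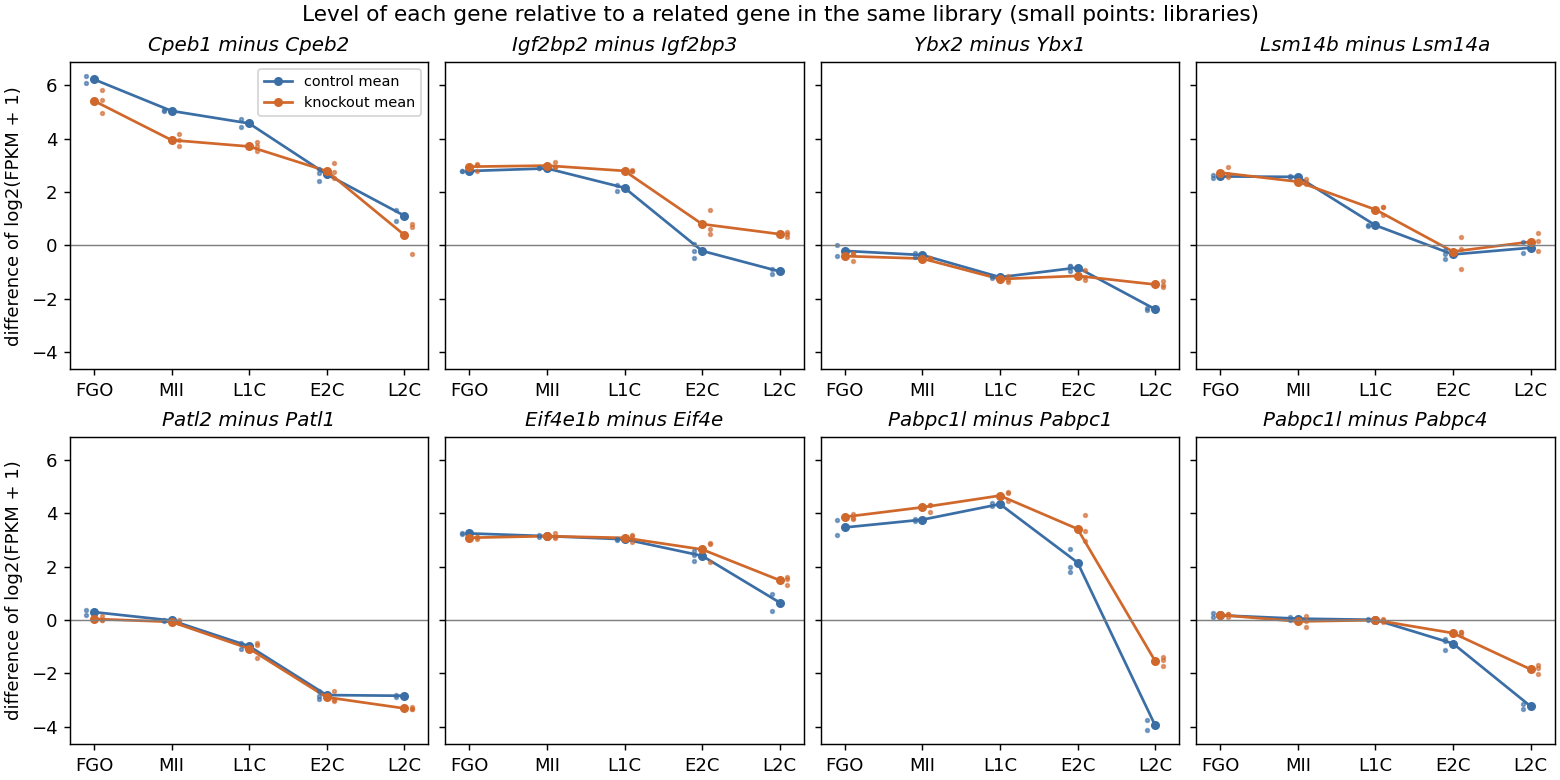
Difference of log2(FPKM + 1) between a gene of the group and a related gene in the same library (y axis) by stage, with small points for libraries and large points joined by lines for group means in controls (blue) and knockouts (orange). The Pabpc1l minus Pabpc1 panel crosses 0 between the 2-cell stages and ends at -3.95 in controls and -1.54 in knockouts.

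Other genes of translational control were followed through 5 lists, described by counts in late 2-cell embryos beside the 17.0% of genes called higher and 17.2% called lower. The lists include relatives described above, such as Ybx3, Lsm14a and Patl1 among the storage RNPs. Their counts are therefore not separate from those results. Of 21 tested genes of storage and repression RNPs 10 were called higher and 1 lower, with a median of 0.35. They include Fxr1, an RNA-binding protein of the fragile X family, at 71.8 ± 0.228 FPKM in controls (SD, n = 2) and 134 ± 2.56 FPKM in knockouts (SD, n = 3) (0.89 ± 0.09 (SE), adjusted p = 1.75e-07). Zar1 and Zar1l, zinc finger proteins of the oocyte that bind 3′ UTRs, differed by 0.76 and 0.77 (adjusted p = 0.00383 and 0.00394), and the 1 lower gene was Ddx6, an RNA helicase of repression particles (-0.61, adjusted p = 0.0242; named after its value was seen).

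The poly(A)-binding proteins and their regulators went both ways, with 3 of 10 tested genes higher and 4 lower. Pabpn1l, the oocyte form of the nuclear poly(A)-binding protein, was higher in knockouts from the oocyte on: 128 ± 23.1 FPKM in controls (SD, n = 2) and 183 ± 6.36 FPKM in knockouts (SD, n = 3) in oocytes (0.53 ± 0.11 (SE), adjusted p = 0.0024), with differences of 0.63 in eggs and 0.79 in late 1-cell embryos (adjusted p = 0.000103 and 3.57e-05). The oocyte call was lost without control replicate 2 (adjusted p = 0.137). In late 2-cell embryos Larp1, which binds mRNAs of ribosomal proteins, was lower, at 21.1 ± 1.55 FPKM in controls (SD, n = 2) and 7.35 ± 0.124 FPKM in knockouts (SD, n = 3) (-1.41 ± 0.19 (SE), adjusted p = 7.09e-06), as was Pabpc1.

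Of 19 tested genes of cytoplasmic polyadenylation and 3′ UTR binding 3 were called higher and 6 lower in late 2-cell embryos, with a median of -0.29, opposite in sign to that of the 8 genes. Tent2, the cytoplasmic poly(A) polymerase also called GLD2, was among the higher (0.75), and 3 subunits of the cleavage and polyadenylation specificity factor, Cpsf1, Cpsf3 and Cpsf4, were among the lower (-0.78, -0.54 and -1.17; these genes were named after their values were seen). Msi2, a 3′ UTR binding protein of the Musashi family, was lower in knockout oocytes, at 4.01 ± 0.917 FPKM in controls (SD, n = 2) and 1.22 ± 0.185 FPKM in knockouts (SD, n = 3) (-1.17 ± 0.18 (SE), adjusted p = 7.52e-05), and also in eggs (-1.10) and late 1-cell embryos (-1.09, adjusted p = 3.23e-05 and 0.000189). Among 13 tested cap-binding factors and regulators 3 were called higher and 2 lower, with a median of 0.05. Eif4e2, an inhibitory relative of eIF4E, was at 28.9 ± 6.60 FPKM in controls (SD, n = 2) and 15.0 ± 2.03 FPKM in knockouts (SD, n = 3) (-0.89 ± 0.20 (SE), adjusted p = 0.0014), a call that was lost without late 2-cell control replicate 2 (0.052). Eif4g1, the scaffold of the cap-binding complex, was higher in knockout eggs and late 1-cell embryos (0.44 and 0.56, adjusted p = 7.79e-05 and 2.8e-05).

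The last list holds 17 mRNAs known as targets of translational activation in maturing oocytes, all tested. In late 2-cell embryos 7 were called higher and 2 lower, with a median of 0.27. Cnot7, a deadenylase subunit, was at 148 ± 9.30 FPKM in controls (SD, n = 2) and 329 ± 38.2 FPKM in knockouts (SD, n = 3) (1.14 ± 0.13 (SE), adjusted p = 8.73e-07), and Btg4, which recruits that deadenylase to maternal mRNAs, differed by 0.61 (adjusted p = 3.19e-05). The lower 2 were Cdc20 and Tpx2 (-0.42 and -0.56), which act in cell division. Btg4, Cdc20 and Tpx2 were named after their values were seen. In the other comparisons Plat, a tissue plasminogen activator mRNA and classical example of cytoplasmic polyadenylation, was higher in knockout early 2-cell embryos, at 22.4 ± 0.976 FPKM in controls (SD, n = 3) and 49.2 ± 10.9 FPKM in knockouts (SD, n = 3) (1.08 ± 0.20 (SE), adjusted p = 0.00122), and Bub1b, a spindle checkpoint kinase, in late 1-cell embryos (1.00 ± 0.14 (SE), adjusted p = 1.81e-05). In early 2-cell embryos, where 6.20% of all genes tested were called higher and 7.28% lower, the counts of list genes called higher and lower were 0 and 0 of 19 (polyadenylation), 4 and 1 of 13 (cap), 2 and 1 of 10 (poly(A) binding), 1 and 0 of 21 (storage RNPs) and 4 and 2 of 17 (activated mRNAs). The 1 storage gene was Zar1l (0.94 ± 0.20 (SE), adjusted p = 0.00367).

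**Figure D5:**
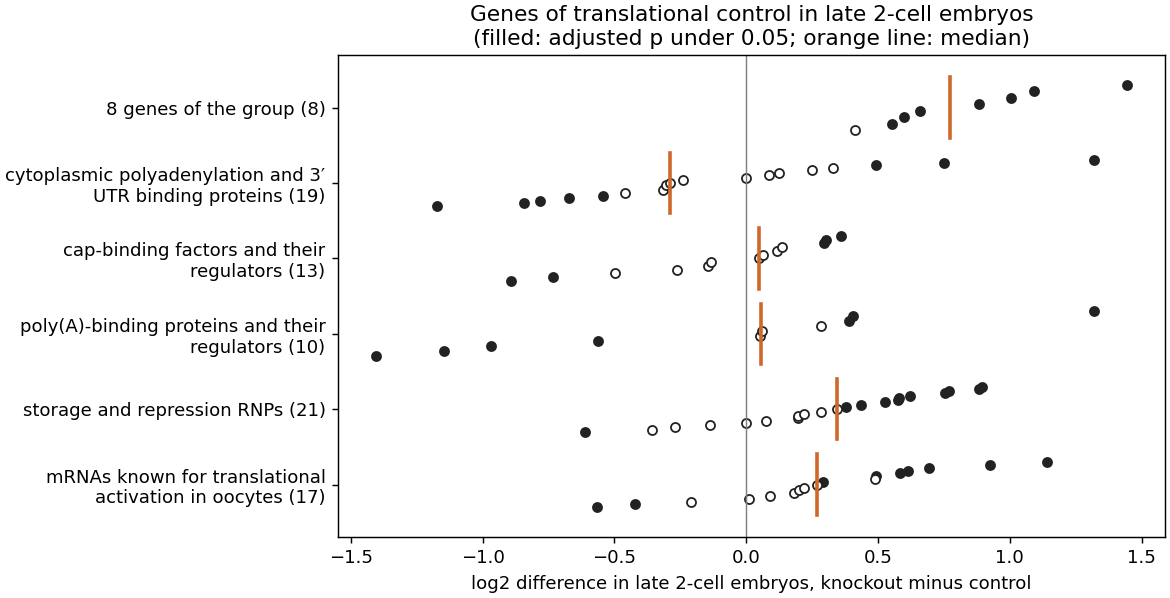
Difference between knockout and control late 2-cell embryos on the log2(FPKM + 1) scale (x axis) for the 8 genes and for the tested genes of 5 lists (rows, number of genes in brackets), with filled points for adjusted p under 0.05 and an orange line at each median. The median is 0.77 for the 8 genes and lies between -0.29 and 0.35 for the lists.

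Among themselves the 8 genes followed different courses. Over the 10 means of stage and genotype, Pearson's r between 2 of the genes ranged from 0.47 (Cpeb1 and Ybx2) to 0.98 (Dazl and Eif4e1b), a description across means that share the same libraries. The genes whose course was most like theirs, of 6145 compared, were Fbxw19 for Cpeb1 (r = 0.992), Asf1a for Dazl (0.990), Adgra3 for Igf2bp2 (0.997), Rela for Ybx2 (0.983), Arl2 for Lsm14b (0.997), Zar1 for Patl2 (0.997), Zcchc8 for Eif4e1b (0.996) and Maea for Pabpc1l (0.996). An r over 0.95 was reached by 20 genes for Ybx2, 96 for Cpeb1, 180 for Dazl, 220 for Lsm14b, 223 for Eif4e1b, 351 for Pabpc1l, 489 for Igf2bp2 and 524 for Patl2, so the course of Ybx2 was the least common of the 8.

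The promoters of the 8 genes differ as well. RefSeq promoter sequence (GRCm38.p6, 250 bases before to 50 after the annotated start) was found for 7 of 8 genes, all but Eif4e1b. CpG dinucleotides numbered 47 in the 300 bases of Igf2bp2, 40 in Lsm14b, 40 and 32 in 2 promoters of Ybx2, 33 in Cpeb1, 28 in Dazl, 10 in Patl2 and 7 in Pabpc1l, against a median of 7 over all promoters. The 250 bases before the start are shown for the 2 genes with the largest difference between knockout and control late 2-cell embryos, Igf2bp2 (chr16:22163300-22163549, minus strand) and Pabpc1l (chr2:164024974-164025223, plus strand), which stood at the 2 ends of this range, with CG in capitals.
Igf2bp2: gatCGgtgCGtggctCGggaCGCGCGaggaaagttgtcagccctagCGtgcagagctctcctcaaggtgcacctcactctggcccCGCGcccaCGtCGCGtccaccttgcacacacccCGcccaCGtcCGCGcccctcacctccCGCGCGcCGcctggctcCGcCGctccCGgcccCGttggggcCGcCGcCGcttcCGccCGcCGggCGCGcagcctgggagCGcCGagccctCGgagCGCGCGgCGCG
Pabpc1l: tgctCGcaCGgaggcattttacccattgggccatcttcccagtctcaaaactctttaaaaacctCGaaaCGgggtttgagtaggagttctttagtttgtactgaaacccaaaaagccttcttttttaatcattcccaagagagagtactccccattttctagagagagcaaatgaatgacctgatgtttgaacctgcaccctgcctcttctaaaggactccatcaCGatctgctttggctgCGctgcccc
These 250 bases held 40 and 6 CpG. The RefSeq start of Pabpc1l lies before the GENCODE gene start given above, and the start used in oocytes was not analysed here.

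By E6.5 most of these mRNAs were at low levels. Igf2bp2 was the exception, at 19.5 to 36.6 FPKM in each of the 11 libraries of the 3 lineages. Ybx2 was at 11.1 and 6.15 FPKM in control and 19.3 and 3.29 FPKM in knockout epiblast and at most 2.75 FPKM elsewhere. Pabpc1l was at 4.93 FPKM in the single control library of extraembryonic ectoderm, 4.65 and 4.25 FPKM in the knockouts and at most 1.80 FPKM in the other lineages. Dazl reached 5.06 FPKM and Lsm14b 8.99 FPKM, both in epiblast, with replicates of 1 genotype several-fold apart. Cpeb1, Patl2 and Eif4e1b stayed under 1 FPKM in every library, and Eif4e1b was listed at 0 in 8 of 11. These libraries are poly(A) libraries, so their levels are not comparable with those of the early stages.

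None of the genes tested among the 8 was called at E6.5. Dazl, Igf2bp2, Ybx2, Lsm14b and Pabpc1l passed the filter on low values, and 0 of 5 were called in epiblast or visceral endoderm (adjusted p = 1 for each), where 0 genes (0% of 13376) and 1 gene (0.00748%) were called in all with limma. The SE of these differences was 0.41 to 0.69 on the log2 scale, against 0.13 to 0.22 in late 2-cell embryos, so smaller differences were not detectable here. As for the labels, the 5 epiblast markers summed to 892.3 FPKM or more in epiblast, 407.8 to 504.8 FPKM in extraembryonic ectoderm and 158.6 FPKM or less in visceral endoderm, so by these sums epiblast genes were also present in the extraembryonic ectoderm libraries. The 6 markers of extraembryonic ectoderm summed to 424.7 FPKM or more in that lineage and 28.6 FPKM or less in the others.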

How the data were processed

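Deposited FPKM tables were the starting point. Per the submitters' processing notes, the authors used Trim Galore 0.6.6, STAR 2.7.9, StringTie 2.1.7 and the mm10 build; the annotation release, the strand setting and read numbers are not given in the sources used here. FPKM of the 26 total RNA libraries (SMART-Seq Stranded) and the 11 poly(A) libraries (SMART-Seq mRNA and Nextera XT, per the labels' protocols) were analysed separately, and 1 value just below 0 was set to 0. Genes that reached 1 FPKM in 2 or more libraries were tested with limma 3.58.1 (R 4.3.3) on log2(FPKM + 1), a scale that understates changes of low genes, with 1 mean per group, a weight per stage, a variance trend and Benjamini-Hochberg adjustment. The poly(A) fit covered epiblast and visceral endoderm without weights; extraembryonic ectoderm, with 1 control library, was not tested. Standard errors are moderated. Adjusted p-values in the report are from this fit or, where a left-out library or another setting is named, from the same test so changed.

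On simulated data 200 of 15184 genes were changed by a log2 difference of 1 or 2 in either direction. Of these, 178 (FGO), 180 (MII), 172 (L1C), 151 (E2C) and 166 (L2C) were recovered, with 108, 87, 60, 31 and 53 false calls. Calls are therefore less firm than an adjusted p of 0.05 implies. Smaller differences, as for most knockout calls on the 8 genes, were not simulated. A fit of each stage alone recovered 163, 165, 165, 131 and 147 with 14, 9, 6, 7 and 3 false calls, and its adjusted p, or that of 2 stages alone, is given where it changes a call on 1 of the 8 genes. Members, lists and tests were chosen with earlier results of these data known. Named genes are the 8 members, their relatives, Bap1, from each list the called gene with the largest change at a stage (not all are printed), and for each member the genes with the closest course (Pearson's r over 10 group means, genes with a group mean of at least 10 FPKM, the closest printed); others are marked where named. Of the gene IDs, 54349 of 55401 matched GENCODE M21 with version, all 8 members among them. Tables were handled with Python 3.11.15, pandas 2.3.3 and numpy 2.4.6, and figures drawn with matplotlib 3.10.9. Alternatives were a pseudocount of 0.1, no filter, a mean of at least 5 FPKM, TPM, centring, no trend, no weights, stages alone, a replicate block and each library left out.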

Additional observations from a re-analysis of the deposited data

Results flagged for a closer look

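The effect of the knockout differed between the early and late 2-cell stage, by a direct test with limma, for Pabpc1l (1.31), Eif4e1b (0.91), Ybx2 (0.89) and Dazl (0.82), each a difference of log2(FPKM + 1) differences, late minus early. In extraembryonic ectoderm, which no test covered, Igf2bp2 had a mean of 34.7 FPKM in the 2 knockout libraries (35.1 and 34.3), both above the single control library (30.9). Both knockout libraries lay below the control for Ybx2 (1.55 and 1.15 against 2.75), Lsm14b (0.416 and 0.716 against 1.41) and Pabpc1l (4.65 and 4.25 against 4.93). These differences were not tested, and the share of all genes with such an order was not computed.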

How the results depend on the processing

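Of 2539 values of single genes recomputed under alternatives, 2402 kept their direction and side of the threshold, 112 lost the call, 25 gained it and 0 reversed; the sign differed for 108 values that were called in neither fit, the largest 0.37 in size. Total counts of called members that moved by over 1.5 times were as follows, and the cause was not tested. In eggs 1 became 0 with a pseudocount of 0.1, TPM, no trend, no weights and eggs alone, and 0 to 1 without a library; with centring the 1 gene called was Dazl, not Cpeb1. In late 1-cell embryos 2 became 1 with no filter, no trend, the replicate block and the stage alone, 0 with no weights and 1 to 2 without a library. In late 2-cell embryos 7 became 4 with no filter. From oocyte to egg in knockouts 2 became 1 with no filter, TPM, centring, no trend, the replicate block, no weights and the 2 stages alone, and 1 to 2 without a library; from egg to late 1-cell embryo in knockouts 4 became 1 under the replicate block. By direction, centring changed 5 lower and 1 higher to 3 and 2 from egg to late 1-cell embryo in controls, and 4 lower and 0 higher to 2 and 1 in knockouts; without weights 5 lower became 3 in controls. The difference of effects between early 2-cell and late 1-cell embryos went from 0 to 0 or 1 without a library. Counts of all called genes varied more: 803 to 2271 in oocytes (2107 reported), 895 to 3408 in eggs (2545), 1176 to 2889 in late 1-cell (2675), 1193 to 4407 in early 2-cell (2046) and 3508 to 6419 in late 2-cell embryos (5197), and without a library at least 1164, 1543, 1421, 1274 and 3649. Centring moved the median of all genes between the 2-cell stages in controls from 0.02 to -0.23. From egg to late 1-cell embryo in controls centring moved it from -0.01 to 0.16. The median of the late 2-cell knockout effect was 0.03, and 0.12 with TPM over its larger set of 19980 genes. No called member value changed sign. Same-numbered libraries of the 2 genotypes did not deviate together in the early stages (r from -0.08 to 0.14), so the numbers were not used as pairs; in epiblast and visceral endoderm r was 0.59 and 0.42 over 2 pairs, and the replicate block called 4 genes in epiblast, against 0 without it. Read depth is unknown, so no counting error is given.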
